A study of Zea mays with 6 samples.

Results

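The subject is a pair of maize transcript models, GRMZM2G123365_T01 and GRMZM2G046306_T01, that the deposited tables describe as esterase precursor. They were selected on their read counts, as esterase precursor models with no read in nucellus that kept their level after pollination, and they are 2 of the 42007 models listed in any library. The study sequenced RNA of the maize inbred line Q319 from unpollinated embryo sacs, from nucellus, and from embryo sacs collected 14 to 16 h after pollination, with 2 libraries of each, named biological replicates in the labels. All groups share the inbred line and poly(A) selection. The sacs were freed from sliced ovules with enzymes, the nucellus came from ovule slices too, and each embryo sac library holds RNA of all cells of the sac together. Since the values that chose the pair are its levels in these 3 tissues, those levels are given as a description and were not tested.

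The embryo sac is the female gametophyte and holds the egg cell, the synergids that draw in the pollen tube, the central cell and the antipodal cells. The nucellus is the maternal tissue of the ovule around it. Esterases are hydrolases that split ester bonds, and secreted plant esterases are known to act on lipids, on cutin and on the acyl groups of cell wall polysaccharides. The word precursor in a protein description usually marks a predicted signal peptide, which leads a protein into the secretory pathway. The substrate of the 2 proteins is not given in the sources used here.

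The 6 libraries held 2.54 to 3.26 M (M, 1000000) unique reads. Libraries of 1 tissue had a Pearson correlation of 0.977 to 0.986 across the tested models on the log2(CPM + 1) scale, where CPM is reads per 1000000 after TMM scaling of the library sizes. Between such libraries the counts varied beyond sampling noise (chi-square per degree of freedom of 1.89 to 2.13). The tissue labels were checked with a list of 7 embryo sac models (described as ES1 and ES2 precursor, EGG APPARATUS-1 and di-SUMO-like protein). Their summed level was 770 to 891 CPM in embryo sac libraries and 912 to 955 CPM in pollinated ones. In nucellus it was 5.56 to 8.15 CPM, with 6 of the 7 models at 0 reads. In these bulk samples, fewer cells of a type and less RNA per cell cannot be told apart.

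GRMZM2G123365_T01, a model of 1463 bases, had 1863 and 1756 reads in the 2 embryo sac libraries, 0 and 0 in nucellus, and 2067 and 1924 in the pollinated embryo sac libraries. These reads correspond to 653 and 661 CPM before pollination and to 1036 and 931 CPM after it. Both libraries of either embryo sac group therefore lay above both nucellus libraries, as the choice of the pair requires. Against the level of 3 reads per nucellus library (0.679 and 0.641 CPM), the mean of 657 ± 5.42 CPM (SD, n = 2) in embryo sac was at least 995-fold higher, and the mean of 984 ± 73.8 CPM after pollination at least 1489-fold higher. These bounds cover counting error only, since PCR copies of a molecule count as separate reads.

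GRMZM2G046306_T01, of 1511 bases, was the lower of the pair. It had 932 and 829 reads before pollination and 1138 and 1152 after it, with 0 and 0 in nucellus. On the CPM scale it stood at 327 and 312 in embryo sac and at 570 and 558 in pollinated embryo sac. The mean of 319 ± 10.5 CPM (SD, n = 2) was at least 484-fold above nucellus, and the mean of 564 ± 8.90 CPM after pollination at least 854-fold. Over all 18844 tested models, 23.2% were called higher in embryo sac than in nucellus and 27.3% higher in pollinated embryo sac than in nucellus, and nothing is read from the pair against these shares because the same contrasts chose it. Among the tested models, all of which had passed the filter on low counts, 510 had no read in nucellus. Of these, 22 including the pair stood at 100 CPM or more in each of the 4 embryo sac libraries.

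**Figure D1:**
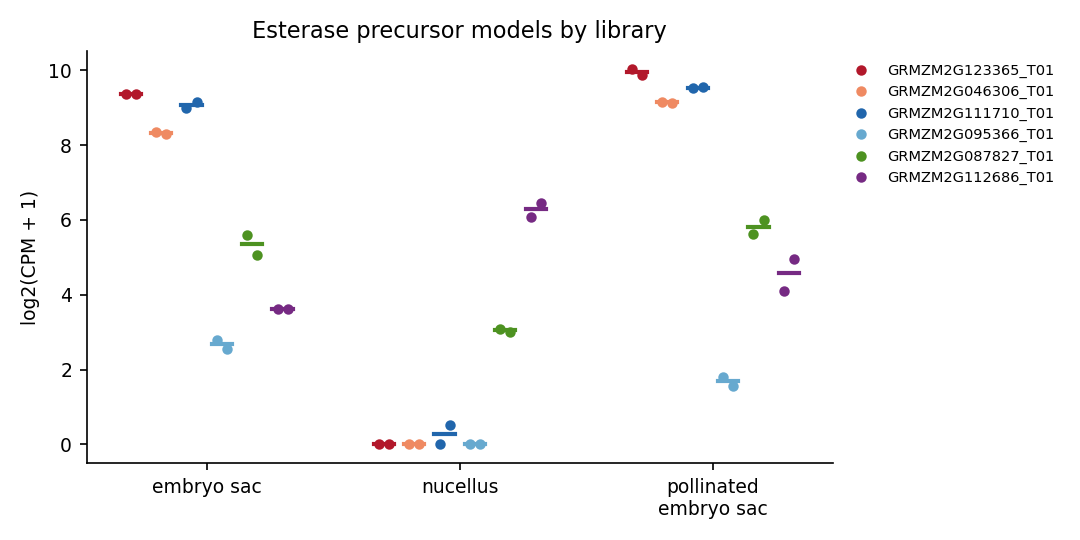
Level of 6 esterase precursor models in each library, as log2(CPM + 1) on TMM-scaled library sizes, with 1 point per library and a bar at the mean of the 2 libraries of a tissue. GRMZM2G123365_T01 and GRMZM2G046306_T01 lie at 0 in both nucellus libraries and at 312 CPM or more in every embryo sac library.

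Per length, both models belonged to the most abundant transcripts of the embryo sac. The deposited RPKM (the read count divided by model length and by the library's reads) of GRMZM2G123365_T01 was 391 and 397 in embryo sac and 556 and 491 after pollination. By RPKM it ranked 172 and 158 in the embryo sac libraries, which listed 31193 and 30963 models, and 138 and 162 in the pollinated ones. GRMZM2G046306_T01 had an RPKM of 189 and 182 before and of 296 and 284 after pollination, at ranks 417, 414, 308 and 327. The 2 models together took 0.0857% and 0.0855% of the reads of the embryo sac libraries and 0.126% and 0.115% of those of the pollinated libraries.

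After pollination both models stood above their level before it, with no overlap between the libraries of the 2 groups. How many of all tested models had groups apart in this way was not counted, so nothing is read from it. On the scale of log2 ratios of mean CPM, the ratio of pollinated to unpollinated was 0.58 for GRMZM2G123365_T01, and single pairs of libraries gave 0.49 to 0.66. For GRMZM2G046306_T01 the log2 ratio was 0.82, with 0.77 to 0.87 between single libraries. On total read counts in place of TMM scaling the log2 ratios were 0.41 and 0.65. Keeping their level after pollination was part of the choice, so these ratios are a description. Among all tested models 32.3% were called between pollinated and unpollinated embryo sac in either direction.

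Sums over marker lists of other tissues did not follow 1 pattern. Between embryo sac and nucellus the tested members of each list were called in both directions, while after pollination this held for the pollen list only. A list of 45 pollen and pollen tube models had a summed level of 92.2 to 95.2 CPM in embryo sac, 127 to 143 CPM in nucellus and 225 to 264 CPM in pollinated embryo sac, with 11, 18 and 16 models at 0 reads in that order. Of its 12 tested models, 4 were called higher and 1 lower after pollination, 2 higher and 4 lower in embryo sac than in nucellus, and 4 higher and 5 lower in pollinated embryo sac than in nucellus. The last comparison had a median log2 change of -0.32, although the sum was higher after pollination than in nucellus. For 4 models of integument, epidermis and vascular tissue the sum was 51.6 to 61.7 CPM before and 72.2 to 89.6 CPM after pollination, against 89.9 to 141 CPM in nucellus, with 1 model at 0 reads in embryo sac, 0 after pollination and 1 in nucellus. Of its 2 tested models none was called after pollination (median log2 change of -0.09), and 1 was higher and 1 lower in embryo sac than in nucellus. For 36 photosynthesis models it was 90.4 to 91.5 CPM before and 36.1 to 41.1 CPM after, against 132 to 139 CPM in nucellus, with 12 models at 0 reads before, 21 after and 5 in nucellus, and 0 of 8 tested models were called higher and 3 lower after pollination. Of the 8 tested photosynthesis models, 2 were higher and 4 lower in embryo sac than in nucellus, and 1 was higher and 6 lower in pollinated embryo sac than in nucellus. The part of these tissues in the level of the esterase pair was not tested.

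The proportion of the 2 models differed between the 2 embryo sac groups in these libraries, which was not tested. GRMZM2G123365_T01 had 1.999 and 2.12 times the reads of GRMZM2G046306_T01 in the embryo sac libraries, and 1.82 and 1.67 times in the pollinated ones. The ratios of the 2 groups did not overlap, and how often this holds for other pairs of models was not counted. Per length, from deposited RPKM, the ratios were 2.06 and 2.19 before and 1.88 and 1.72 after pollination. In every embryo sac library GRMZM2G123365_T01 was the higher model on both scales.

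Both models have the same best match in the deposited protein search, a single maize RefSeq protein. Of the 7 models of 6 genes described as esterase precursor, 4 models of 4 genes share that match, and the other 3 models fall to 2 further proteins. How alike the 4 are in sequence was not analysed here. Only unique reads were counted, so reads that map equally to more than 1 of them would be missing, and the level of each is uncertain for that reason. Each member gene has a single model in the tables, so no reads are split among models of those genes there.

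GRMZM2G111710_T01, a model of 1444 bases, is the model of the 4 that lies just outside the choice. It had 1448 and 1509 reads before and 1468 and 1540 after pollination, against 0 and 2 in nucellus. Its 2 nucellus reads, both in library 2, are what separates it from the pair. At 538 ± 42.6 CPM in embryo sac against 0.214 ± 0.302 CPM in nucellus (SD, n = 2), the ratio was 2441, with a 95% exact interval for counting error of 675 to 20167. The edgeR quasi-likelihood test called it higher in embryo sac (Benjamini-Hochberg adjusted p = 2.24e-87). It reached the filter on low counts only in the embryo sac groups, so this call follows in part from the filter. Its level after pollination was 741 ± 6.98 CPM, a fitted log2 change of 0.46 ± 0.11 (SE, edgeR adjusted p = 9.07e-05), which stays under the fold threshold of 1 on the log2 scale. On total read counts the log2 ratio of its means was 0.29. The comparisons share the embryo sac libraries, so the values of one are not independent of the other.

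Per length, the 3 abundant models of this match kept 1 order in both embryo sac groups. GRMZM2G123365_T01 was highest, GRMZM2G111710_T01 followed with an RPKM of 308 and 346 before and 400 and 398 after pollination, and GRMZM2G046306_T01 was lowest. No 2 neighbours in this order overlapped between their libraries in either group. This holds for the full model length. In embryo sac, reads covered 70.3% and 70.5% of GRMZM2G123365_T01 but 61.9% and 58.2% of GRMZM2G111710_T01, so the order of these 2 there depends on the length used. The nearest RPKM values were 391 against 346 for the upper 2 models in embryo sac.

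GRMZM2G095366_T01, the last model with this match, is shorter, with 1053 bases, and was rare. It had 17 and 13 reads before and 5 and 4 after pollination, against 0 and 0 in nucellus, so it also had no nucellus read. Its level in embryo sac was at least 8.22-fold above nucellus. It passed the filter on low counts only through the embryo sac libraries, so its call against nucellus follows in part from the filter. That call is not read on its own, though it is contained in the counts and medians of the list below. From 5.43 ± 0.755 CPM (SD, n = 2) before pollination it stood at 2.22 ± 0.402 CPM after it, a log2 change of -1.28 ± 0.58 (SE) that missed the threshold (edgeR adjusted p = 0.0565). With 30 reads against 9, this change says little, and since the pair was selected for keeping its level, they are not set against each other.

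The 4 models with the shared match took nearly all esterase precursor reads of the embryo sac. They held 96.2% and 97.3% of the reads of the 7 models in the embryo sac libraries and 97.3% and 96.0% in the pollinated ones. The pair alone held 63.1% and 61.2% before and 66.7% and 63.9% after pollination. In nucellus the 4 models had 0 of 329 and 2 of 443 esterase precursor reads. Their summed level was 1494 and 1546 CPM in embryo sac and 2344 and 2236 CPM after pollination.

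**Figure D2:**
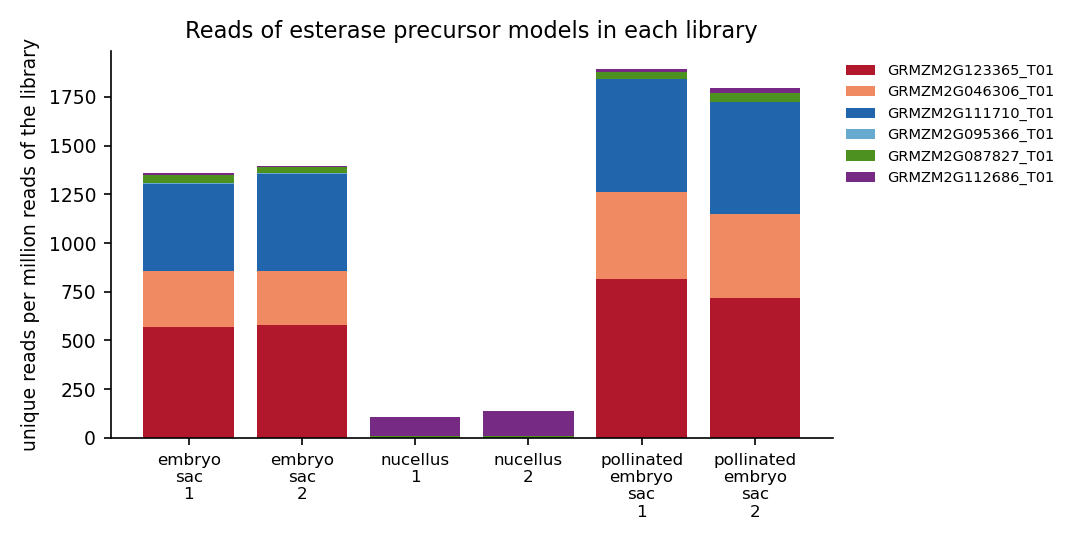
Unique reads of esterase precursor models per 1000000 reads of each library, on total counts without TMM scaling, stacked by model. The seventh model, GRMZM2G112686_T02 with 1 read in all, is not drawn. The pair (red and orange) and GRMZM2G111710_T01 (dark blue) make up most of each embryo sac bar, while GRMZM2G112686_T01 (purple) makes up most of each nucellus bar.

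The coverage column of the tables, the share of a model's length with at least 1 read, was steady for the pair. It was 70.3%, 70.5%, 70.6% and 70.3% for GRMZM2G123365_T01 in the 4 embryo sac libraries, which leaves 430 to 434 bases without a read in each. For GRMZM2G046306_T01 it was 78.6%, 79.6%, 79.5% and 81.3%, or 282 to 324 bases without a read. GRMZM2G111710_T01 ranged from 58.2% to 64.7%. Among models of 1200 to 1800 bases with 500 to 3000 reads, a range set after the values were seen, the median coverage was 85.2% to 86.2% in these libraries. Between 24.2% and 27.5% of those models were covered less than GRMZM2G123365_T01, and 33.0% to 41.0% less than GRMZM2G046306_T01.

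**Figure D3:**
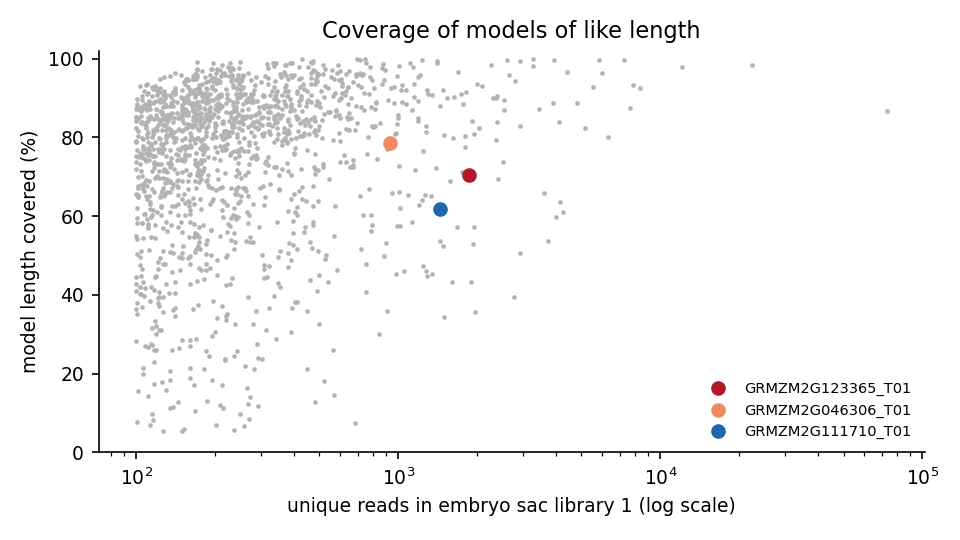
Share of the model length covered by reads against the number of unique reads (log scale) in embryo sac library 1, for models of 1200 to 1800 bases with at least 100 reads (grey) and for 3 esterase precursor models (coloured). These lie at 78.6%, 70.3% and 61.9%, below the median of 85.8% of models with 500 to 3000 reads and within the cloud.

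The remaining esterase precursor genes had reads in all 3 tissues. GRMZM2G087827_T01, with another protein match, had 134 and 86 reads before and 96 and 129 after pollination, against 33 and 33 in nucellus. It was higher in embryo sac than in nucellus by 2.45 ± 0.23 on the log2 scale (edgeR adjusted p = 1.28e-19), and its log2 change after pollination was 0.47 ± 0.19 (edgeR adjusted p = 0.027), under the fold threshold. GRMZM2G112686_T01 went the opposite way, with 296 and 407 reads in nucellus against 32 and 30 in embryo sac. It was lower in embryo sac, with a log2 change of -2.77 ± 0.20 (edgeR adjusted p = 1.62e-25). The other model of that gene, GRMZM2G112686_T02, had 1 read, in nucellus, and was not tested.

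After pollination GRMZM2G112686_T01 had 32 and 62 reads, a mean of 23.0 ± 9.88 CPM (SD, n = 2), against 11.2 and 11.3 CPM in the libraries before it. It was the single other esterase precursor model called in that comparison, higher by 1.04 ± 0.26 on the log2 scale (edgeR adjusted p = 0.000492). Without pollinated library 2 its log2 change was 0.52, and it was no longer called. Under total count scaling it was 0.86, also not called, and there GRMZM2G095366_T01 was called lower at -1.45. That model passed the filter only through the embryo sac libraries, where it is high, so nothing is read from this call.

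Of the 5 other esterase precursor models, 4 passed the filter on low counts. All 4 were called between embryo sac and nucellus, 3 higher and 1 lower, beside 39.4% of all tested models. The higher calls include GRMZM2G095366_T01 and GRMZM2G111710_T01, which passed the filter only where they are high. The median log2 change of the 4 was 4.77 as fitted and 2.74 with GRMZM2G095366_T01 at its bound, against -0.00 for all tested models. After pollination 1 of 4 was called, 25.0%, beside 32.3% of all tested models, with a median of 0.47 against -0.08. Between pollinated embryo sac and nucellus all 4 were called, 3 higher and 1 lower, beside 55.2% of all tested models. The higher calls again include GRMZM2G111710_T01 and GRMZM2G095366_T01, the latter here with 9 reads over both pollinated libraries against 0 in nucellus. Of the 4 tested models, 2 share the protein match of the pair.

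A wider list of 50 related models, found by words for lipases, other esterases, alpha/beta hydrolases and GID1 in their descriptions, had 31 tested members. Of these, 16 are described as gibberellin receptor GID1 or GID1-like, soluble proteins related to hormone-sensitive lipases, and 13 as lipase. Between embryo sac and nucellus 16 were higher and 4 lower, with a median log2 change of 1.69, or 1.58 with models at 0 reads in a group at their bound. After pollination 7 were higher and 2 lower, with a median of 0.44. Between pollinated embryo sac and nucellus 21 were higher and 5 lower, which became 17 and 8 under total count scaling, while 16 and 4 became 14 and 6. The shares called were 64.5%, 29.0% and 83.9%, beside 39.4%, 32.3% and 55.2% of all tested models. Between embryo sac and nucellus the 16 GID1 models had 11 higher and 0 lower calls (68.8%), and the other 15 had 5 and 4 (60.0%). Between pollinated embryo sac and nucellus the GID1 models had 15 and 0 (93.8%), and the other 15 had 6 and 5 (73.3%). Of the 31, 8 reached the filter in 1 tissue only and 6 in 2 tissues only, so their calls follow in part from the filter.

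Some of these models were high in embryo sac, though below the pair. An esterase/lipase/thioesterase model (GRMZM2G002286_T01) stood at 203 ± 3.72 CPM in embryo sac against 1.43 ± 0.214 in nucellus, a log2 change of 7.11 ± 0.22 (edgeR adjusted p = 3.01e-71). It reached the filter on low counts only in the embryo sac groups, so its call follows in part from the filter. A triacylglycerol lipase (GRMZM2G179777_T01), an enzyme that releases fatty acids from storage fat, stood at 142 ± 19.3 CPM against 3.94 ± 1.08 (log2 change of 5.15 ± 0.19). A putative GID1-like gibberellin receptor (GRMZM2G173630_T01) stood at 218 ± 12.7 CPM against 44.8 ± 3.47 (2.28 ± 0.12). Both libraries of each were above both nucellus libraries. The share of all tested models with groups apart in this way was not counted, so nothing is read from it.

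The lower models named here reached the filter on low counts in nucellus only. A GSDL-motif lipase, as its description spells it (GRMZM2G073770_T01), stood at 7.22 ± 1.88 CPM in nucellus and had 0 reads in embryo sac, where it was at least 6.62-fold lower. A triacylglycerol lipase precursor (GRMZM2G169562_T01) was lower at -2.37 ± 0.37 on the log2 scale. A lipase precursor (GRMZM5G882821_T06), 1 of 2 models of its gene, had 1 read against 25, a ratio of nucellus to embryo sac of 15.1 (2.48 to 622). The last of these was not called by DESeq2 or without embryo sac library 1.

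After pollination 6 of the 16 GID1 models were called higher and 0 lower, 37.5%, beside 2447 of all 18844 tested models called higher and 32.3% called in either direction. Of the 6 GID1 models called, 3 reached the filter only through the pollinated libraries, so their calls follow in part from the filter. Both models of the gene GRMZM5G831102 are among the 6, so the calls are not from 6 separate genes. Among those not called, and named here after their values were seen, GRMZM2G301932_T01 had a log2 change of -0.68 and GRMZM2G420786_T01 of -0.53. Of the called models, one (GRMZM5G831102_T02), 1 of 2 models of its gene, went from 28.0 ± 5.02 to 76.4 ± 8.83 CPM, a log2 change of 1.44 ± 0.18 (edgeR adjusted p = 8.04e-12). Another (AC218900.3_FGT001) was higher by 1.16 ± 0.23, which fell under the fold threshold at 0.98 with total count scaling and at 0.94 without pollinated library 2. A triacylglycerol lipase (AC231411.1_FGT011) had 28 reads after pollination against 3 before, a ratio of 12.7 (3.91 to 65.1). This lipase too reached the filter only through the pollinated libraries, so its call follows in part from the filter. In the other direction, a gastric triacylglycerol lipase precursor (GRMZM2G322892_T01), 1 of 2 models of its gene, had 0 reads after pollination against 32 before, at least 3.96-fold lower. It did not reach the filter in the pollinated libraries, so its call follows in part from the filter. An esterase/lipase/thioesterase model (GRMZM2G144021_T01), 1 of 3 models of its gene, was lower at -1.14 ± 0.28 and not called without pollinated library 1, at -0.94.

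**Figure D4:**
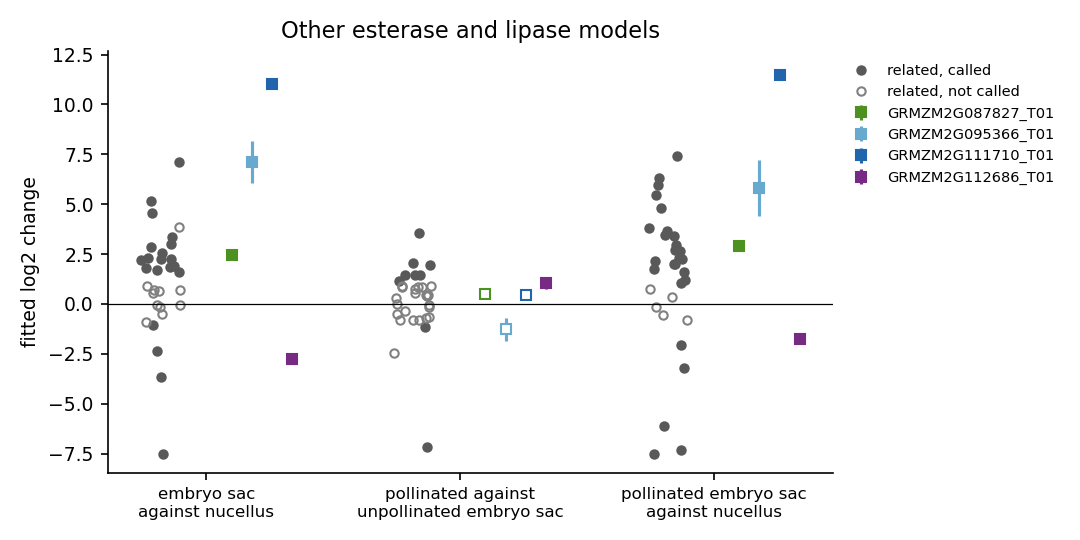
Fitted log2 change of 4 other esterase precursor models (squares, with bars of 1 standard error) and of 31 related esterase and lipase models (circles) in 3 comparisons, filled where called at an adjusted p under 0.05 and a log2 change of at least 1. GRMZM2G111710_T01 lies highest of the squares in both comparisons with nucellus, at 11.01 and 11.48, and GRMZM2G112686_T01 lies below 0 in both. Fitted changes of models with no read in a group depend on the prior count of the fit.

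The models most like the pair were those with the smallest Euclidean distance of log2(CPM + 1) over the 6 libraries, which are 3 tissues in pairs, so that a tissue pattern and a level set the distance. For GRMZM2G123365_T01 the nearest were AC195058.3_FGT003, without a description, at 0.53 and GRMZM2G373958_T01, an uncharacterized precursor, at 0.63. GRMZM2G111710_T01 followed at 0.89. The uncharacterized GRMZM2G091774_T01 at 0.95 and the hypothetical protein GRMZM2G074293_T01 at 1.08 came next. None of these 5 had more than 3 reads over both nucellus libraries.

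For GRMZM2G046306_T01 the nearest was GRMZM2G087766_T01, described as embryo-sac basal-endosperm layer embryo-surrounding-region precursor, at a distance of 0.60. It had 768 and 639 reads before and 999 and 917 after pollination, against 0 and 0 in nucellus. A subtilisin-like protease (GRMZM2G059165_T01), of a family of secreted serine proteases, was next at 0.72 and stood at 227 ± 15.2 CPM before and 535 ± 9.92 CPM after pollination, also with no nucellus read. The uncharacterized GRMZM2G075461_T01 at 0.87, GRMZM5G869984_T01 without a description at 0.96 and AN17 (GRMZM2G125775_T01) at 1.17 completed the 5. The distance between the 2 members themselves was 1.86, and 19 models lay nearer to GRMZM2G123365_T01 and 23 nearer to GRMZM2G046306_T01 than its partner did. Over the 6 libraries the Pearson correlation of the members was 0.9995, and 25 other models correlated at least as well with GRMZM2G123365_T01.

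**Figure D5:**
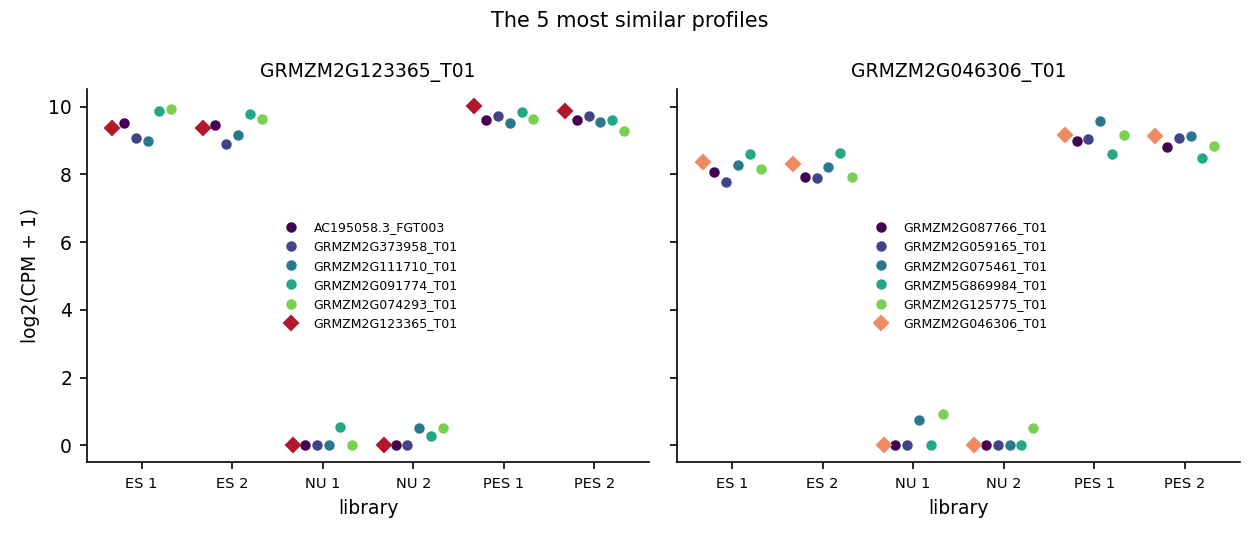
Level as log2(CPM + 1) of GRMZM2G123365_T01 (left, diamonds) and GRMZM2G046306_T01 (right, diamonds) and of the 5 models nearest to each (circles) in the 6 libraries, where ES is embryo sac, NU nucellus and PES pollinated embryo sac. All shown models lie under 1 on this scale in nucellus and above 7 in every embryo sac library.

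Neither member's gene identifier was found among RefSeq genes (Zm-B73-REFERENCE-NAM-5.0), so no neighbours of the pair are given. The protein that the 4 models match belongs to the locus LOC100283755, which carries the older identifier GRMZM2G111710, as does the locus 2 places before it, LOC100284971. Both loci also carry the older identifier GRMZM2G047139, which had no model in the tables. The older gene GRMZM2G111710 thus maps to 2 loci of that assembly. The fifth gene after LOC100283755 is LOC100282778, the locus of GRMZM2G112686, the esterase precursor gene that was lower in embryo sac. The other neighbours that had models in the tables within 5 genes on either side, GRMZM2G167718 and GRMZM2G423617, had at most 5 reads per model in any library and were not tested. This locus was looked at after the shared protein match had been seen.

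The GO text of the pair reads cytoplasmic vesicle for component, hydrolase activity for function and primary metabolic process for process. The same 3 entries stood in 54 of 42007 models (0.129%), among them 4 of the 5 other esterase precursor models. A component text of cytoplasmic vesicle alone stood in 5.86% of all models. These entries name no substrate.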

How the data were processed

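Each library has its own table, in which the authors deposited whole-number counts of unique reads per transcript model, the model length, the percent of the length covered and an RPKM value, per the file headers. Counts sum to the library total in the header, models without a read are not listed and were taken as 0, and RPKM recomputed from count, length and total differed from the deposited RPKM by at most 1.39e-08 of its value. Which aligner, counter and build were used is not given in the sources used here. Strand is not given either, so reads of antisense genes cannot be separated.

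Counts of all 6 libraries entered one edgeR 4.0.16 fit (R 4.3.3, filterByExpr, TMM, robust quasi-likelihood), which tested 18844 models. Called means a Benjamini-Hochberg adjusted p under 0.05 over all of these together with a log2 change of 1 or more in size. The procedure was tested on simulated data. TMM factors were 0.771 to 1.47. With total counts, the median over tested models of the log2 change went from -0.00 to -0.74 (embryo sac against nucellus), from -0.08 to -0.25 (pollinated against unpollinated) and from -0.06 to -0.97 (pollinated against nucellus), so changes are relative to the bulk of models. Where the lower group had 0 reads, folds are bounds at 3 reads per library.

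The members, lists and rules were chosen with earlier results of these data known. Named are the pair, all esterase precursor models, in the wider list up to 3 called models of smallest p per direction in the first 2 comparisons, the 5 nearest profiles (pseudocount 1) and genomic neighbours. DESeq2 1.42.0, other scalings, no filter, sums per gene, a replicate block and leaving out each library were tried. Replicates are as the labels name them. P-values set a change against the spread between libraries of a group. The fit estimates this spread over all 3 groups and shares information across models, since each group has 2 libraries. No sequence of the members was used here.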

Additional observations from a re-analysis of the deposited data

How the results depend on the processing

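The log2 ratio of pollinated to unpollinated embryo sac was 0.58 for GRMZM2G123365_T01 and 0.82 for GRMZM2G046306_T01, and both total counts and deposited RPKM gave 0.41 and 0.65. Leaving out 1 library gave 0.50 to 0.66 and 0.79 to 0.85. The log2 ratio of the first member to the second was 1.04 before and 0.80 after pollination, and per covered length, an alternative chosen after seeing the data, 1.25 and 1.04. Leaving out 1 library gave 0.999 to 1.08 and 0.74 to 0.86. Other esterase precursor models called after pollination numbered 1, and 2 with the words matched anywhere in the description (7 tested). On leaving out 1 library the edgeR count ranged from 0 to 1, with 1 model at an unadjusted p under 0.05 where it was 0 (without pollinated library 2), and DESeq2 on all libraries called 1. Of all calls between embryo sac and nucellus, 4368 were higher and 3065 lower, against 3011 and 7412 with total counts, and between pollinated embryo sac and nucellus 5137 and 5264, against 3264 and 9173. For models named with a test, 266 values under an alternative kept direction and call, 7 lost the call and 1 gained it. Of the 5 nearest profiles, Pearson correlation kept 0 for GRMZM2G123365_T01 and 1 for GRMZM2G046306_T01, and a pseudocount of 0.5 kept 4 and 3. The cause of these differences was not tested. Replicate numbers only name libraries: deviations from the group means correlated at -0.02 to 0.02 between tissues. With a replicate block 7300, 5959 and 10296 models were called in the 3 comparisons, against 7433, 6092 and 10401 without it, and no count of esterase models changed. Within replicate numbers the pollination log2 ratios of the pair were 0.58 and 0.82, and those between the members 1.04 and 0.80. Depth limits the pair in nucellus to an upper level of 0.679 and 0.641 CPM, which 3 reads would give.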
